A study of Mus musculus with 35 samples.

Results

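The comparison described here sets tracheal allografts against tracheal isografts 4 days after transplantation, in mouse. It holds 10 of the 35 arrays of the series. The 5 allograft arrays came from trachea placed heterotopically (outside the airway) in a recipient that did not match it at the MHC, and the 5 isograft arrays from trachea placed in a recipient that did. The 5 arrays of native, untransplanted trachea are given beside them as a further level, and the 5 allograft and 5 isograft arrays of day 14 and of day 25 serve as a comparison on other arrays. The labels give neither the donor nor the recipient strain, the age of the animals nor whether tracheas were pooled, so differences between strains and differences between graft types cannot be told apart. They also do not say that the arrays of a group came from separate animals, and p-values therefore measure the spread between these arrays.

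The values are log2 intensities of probe sets. A probe set is a group of short probes that report 1 transcript, and some genes have several. A probe set was compared if 5 or more of the 10 day 4 graft arrays gave a log2 value of 5 or above, which kept 12067 of 22626 probe sets that are not controls, covering 7420 of the 12393 genes on the array. Values of roughly 2 to 4 lie near background, and differences that involve them depend on the background model behind the deposited values. The medians of the 10 arrays lay between 5.165 and 5.29. Pairs of allograft arrays correlated at 0.912 to 0.958 and pairs of isograft arrays at 0.903 to 0.976, and pairs of 1 allograft and 1 isograft at 0.888 to 0.962, so the 3 ranges overlapped. Several defining genes of trachea were high in both graft groups, though not all stood at the level of native trachea. The club cell secretory protein gene Scgb1a1 lay between 10.172 and 11.998 in allografts and between 10.141 and 11.600 in isografts. Both were below native trachea, where it lay between 14.362 and 14.530. The cartilage collagen gene Col2a1 lay between 10.195 and 12.735 in allografts, between 10.691 and 12.572 in isografts and between 9.557 and 11.998 in native trachea. The basal cell keratin gene Krt5 differed by -0.04. The ciliated cell regulator Foxj1 was below the filter in the grafts, at 4.24 to 6.53 in allografts and 4.87 to 5.10 in isografts, against 5.06 to 9.14 in native trachea.

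An allograft carries MHC molecules that the recipient's lymphocytes recognise as foreign, whereas an isograft does not. Activated T cells and NK cells release interferon-gamma, which signals through a receptor on the cell surface and changes transcription. Promoters of induced genes can hold gamma-activated sequences (GAS) and interferon-stimulated response elements (ISRE), and interferon regulatory factors bind the second kind. Among these genes are guanylate-binding proteins (GBPs) and immunity-related GTPases (IRGs), which attack the vacuoles of intracellular microbes, the chemokines that attract cells carrying the receptor CXCR3, and the machinery that loads peptides onto MHC molecules.

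At day 4 few probe sets differed between the grafts. In allografts 59 of 12067 probe sets were called higher (0.489%) and 15 were called lower (0.124%), by limma with a Benjamini-Hochberg adjusted p under 0.05. They stood for 43 genes higher and 9 lower, while 7 higher and 2 lower probe sets had several genes and 7 higher ones had no gene in the annotation. Differences were large where they were called: 53 of the higher and 14 of the lower probe sets differed by at least 2-fold. In 54 of the 59 higher probe sets every allograft array lay above every isograft array, beside 1.29% of all probe sets kept. In 13 of the 15 lower ones every allograft array lay below every isograft array, beside 0.497%. The called probe sets were chosen by a test on these same arrays, so this separation describes them and is no independent result. The median difference over all probe sets kept was 0.02 on the log2 scale. Of the called probe sets 7 of the higher (Cxcl9, Gbp8, Trim34a, Ifi209, Snx6, Klrd1 and 1 unnamed) passed the filter only through the allografts and 3 of the lower (Hal, H2-Ea and Ifi44l, each by 1 of its probe sets) only through the isografts. Such probe sets had to differ, and each of these 10 was also called when no filter was used. A pair of arrays outside the comparison, native replicate 5 and replicate 5 of the day 25 isografts, lay away from the rest of their groups. A fit without both, chosen after seeing the data, called 65 probe sets higher and 16 lower. The spread was estimated from all 35 arrays, and with the 10 day 4 arrays alone 37 probe sets were called higher and 11 lower.

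Every GBP gene that passed the filter rose in allografts, 6 of 6, where 35 of 7420 genes represented by 1 probe set each were called higher (0.472%) and 7 lower (0.0943%). Gbp8, 1 of the 6, passed the filter only through the allografts. The median difference of the 6 was 2.11, against 0.04 over all genes kept. Gbp2 had log2 values of 9.25, 9.66, 10.95, 8.49 and 9.19 in allografts 1 to 5, against 6.22, 6.67, 7.57, 6.86 and 6.49 in isografts 1 to 5 and a mean of 6.88 in native trachea. The groups did not overlap, and Gbp2 rose by 2.75 on the log2 scale (SE 0.31, n = 5 per group, adjusted p = 4.8e-07, limma). Its second probe set rose by 2.50. Gbp6 rose by 2.58, Gbp2b by 2.12, Gbp8 by 2.11, Gbp3 by 1.64 and Gbp7 by 1.59. With the 10 day 4 arrays alone the calls of Gbp3, Gbp7 and Gbp8 were lost (limma adjusted p = 0.0809, 0.0699 and 0.133).

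The IRG genes rose in the same arrays, 5 of 5 that passed the filter, with a median difference of 1.88. Iigp1 had values of 10.25, 9.91, 11.15, 9.99 and 9.98 in allografts, against 7.71, 6.45, 8.29, 6.94 and 7.81 in isografts and a mean of 7.32 in native trachea. It rose by 2.81 (SE 0.34, adjusted p = 1.5e-06, limma), and its second probe set by 2.35. Ifi47 rose by 1.94, Irgm2 by 1.88, Igtp by 1.87 and Irgm1 by 1.56. Each of the 5 was higher in every allograft than in every isograft, as were each of the 6 GBPs, beside 1.43% of genes represented by 1 probe set each. Of these, Gbp8 could not overlap, since it passed the filter only through the allografts. With the 10 day 4 arrays alone Irgm2 had a limma adjusted p = 0.0558.

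Cxcl9 and Cxcl10, ligands of CXCR3, rose as well. Cxcl9 had values of 8.84, 9.19, 10.28, 7.78 and 8.57 in allografts, against 3.02, 3.87, 4.95, 3.73 and 3.58 in isografts, which lie near background, and rose by 5.10 (SE 0.41, adjusted p = 2.2e-10, limma). Cxcl10 had 9.06, 10.03, 10.35, 7.74 and 8.25 in allografts, against 6.38, 6.53, 7.10, 6.46 and 6.33 in isografts, and rose by 2.53 (SE 0.39, adjusted p = 9.8e-05, limma). No allograft overlapped an isograft in either gene, but Cxcl9 passed the filter only through the allografts, so its groups could not overlap. Cxcl11, another ligand of CXCR3, was not called, with 4.799 to 5.485 in allografts and 4.892 to 5.817 in isografts. Cxcr3 itself was below the filter, with means of 3.62 in allografts and 3.78 in isografts.

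The 13 called genes of these families (2 chemokines, 6 GBPs and 5 IRGs) had isograft levels close to those of untransplanted trachea. The isograft mean minus the native mean had a median of 0.18 over the 13 and ran from -1.38 for Gbp6 to 0.80 for Cxcl10. In 2 of the 13 every isograft lay above every native array, and in 12 of 13 every allograft did. The 13 were chosen for being higher in these same allografts, and the shares over all genes kept were not counted. The isograft and allograft values share the native arrays here, so they are given as levels only. The same arrays were high for most of these genes. Allograft replicate 3 was the highest allograft in 13 of 13 and replicate 4 the lowest in 10 of 13. Isograft replicate 3 was the highest isograft in 11 of 13. This order was not particular to the 13. Over all 59 probe sets called higher, allograft replicate 3 was highest in 35, allograft replicate 4 lowest in 35 and isograft replicate 3 highest in 41. The mean level over the 13 genes was 9.62 in allograft replicate 3 and 7.54 in allograft replicate 4, against 6.66 in isograft replicate 3 and 5.81 to 6.06 in the other isografts.

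**Figure D1:**
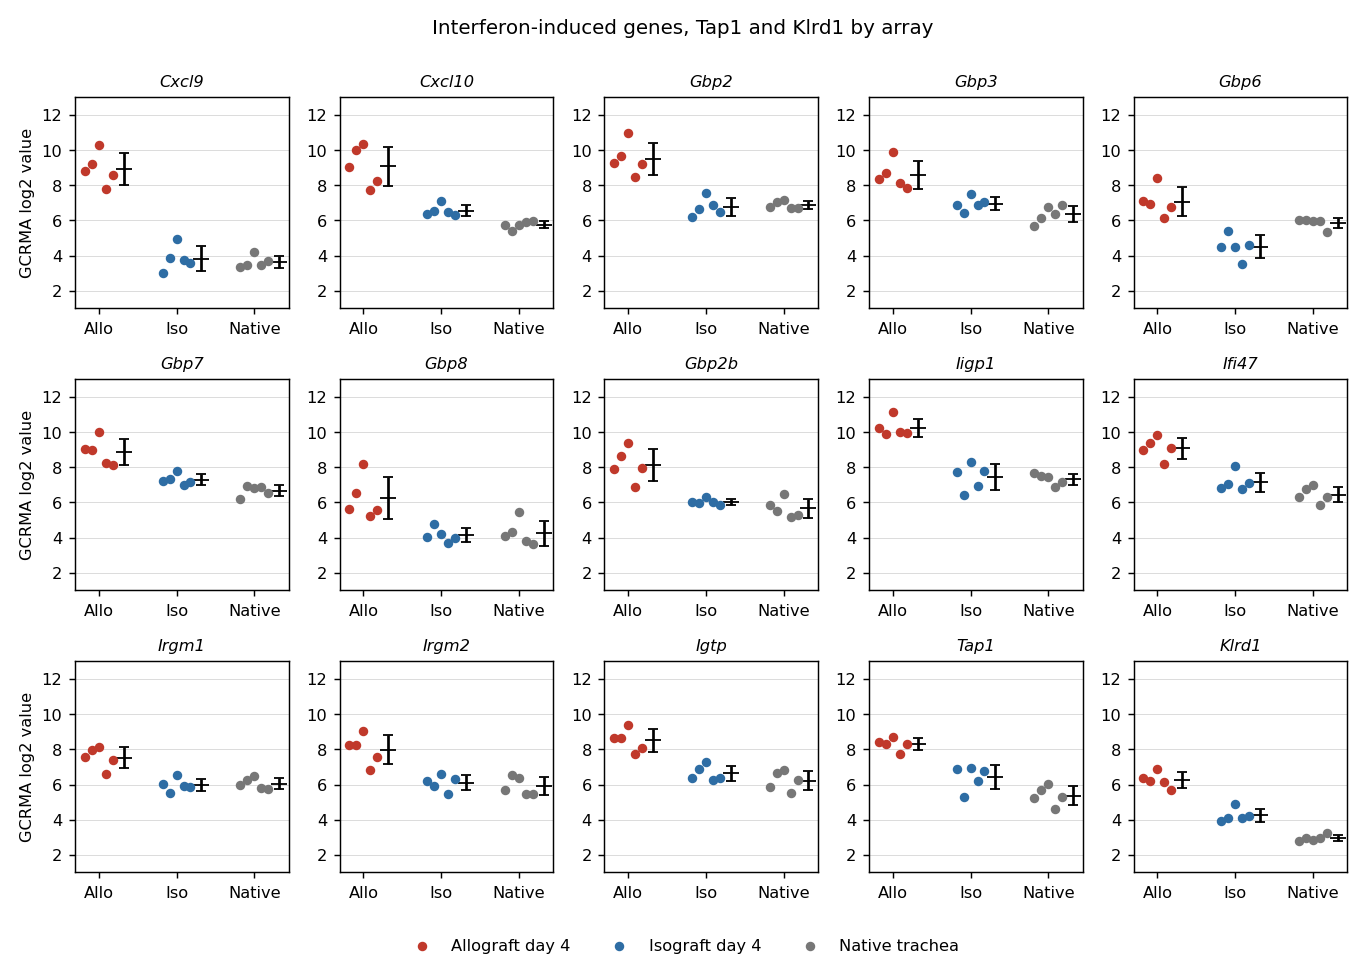
Log2 values of 15 genes called higher in day 4 allografts, by array, with allografts on the left, isografts in the middle and native trachea on the right of each panel. Points are arrays in replicate order and black bars are the mean and SD (n = 5). In the 13 chemokine, GBP and IRG genes the lowest allograft lies above the highest isograft, and the isografts lie near the native arrays in most panels.

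The promoters of the higher genes were searched for letters that resemble both elements, since the members moved together. A GAS-like match was TTCNNNGAA, and an ISRE-like match was GAAA, any 2 bases and GAAA again, on either strand and with overlaps between matches counted, in the 250 bases before the transcription start given by RefSeq on GRCm38.p6. Promoters were matched for 36 of the 43 higher genes. An ISRE-like match was present in 13 of the 36 (36.1%), against 3.47% of 6021 genes kept with a promoter. Over all 27025 genes with a promoter in the table it was 3.46%. A GAS-like match was present in 5 (13.9%), against 7.27% of the genes kept. The matches are letters in a window and do not show a bound site. The 4 sequences below are those of interferon-induced GTPases, first the 3 that carry both motifs and then Gbp2, which has the largest difference among those with a promoter in the table and a match. Each is the last 150 bases before the start, with GAS-like and ISRE-like matches in capitals.
Irgm2, chr11:58214827-58214976, plus strand: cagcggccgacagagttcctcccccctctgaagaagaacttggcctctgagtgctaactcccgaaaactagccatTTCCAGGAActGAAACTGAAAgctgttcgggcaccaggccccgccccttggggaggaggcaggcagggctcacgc
Igtp, chr11:58199406-58199555, plus strand: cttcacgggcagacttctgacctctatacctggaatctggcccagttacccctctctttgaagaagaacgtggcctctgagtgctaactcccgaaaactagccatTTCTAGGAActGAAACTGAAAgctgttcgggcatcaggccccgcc
Gbp7, chr3:142530186-142530335, plus strand: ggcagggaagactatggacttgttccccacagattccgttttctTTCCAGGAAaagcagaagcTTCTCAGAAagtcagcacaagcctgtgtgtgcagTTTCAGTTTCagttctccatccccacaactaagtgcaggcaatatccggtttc
Gbp2, chr3:142620513-142620662, plus strand: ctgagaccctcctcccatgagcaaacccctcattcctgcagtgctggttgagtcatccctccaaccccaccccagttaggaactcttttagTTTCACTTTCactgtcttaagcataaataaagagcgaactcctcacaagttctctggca

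In Irgm2 a GAS-like match starts 75 bases and an ISRE-like match 64 bases before the transcription start, and in Igtp the same pair starts 45 and 34 bases before it. Both genes lie on chromosome 11, and their promoters share an identical run of 38 bases. Gbp7 has GAS-like matches 106 and 87 bases before the start and an ISRE-like match, on the other strand, at 53. Gbp2 has 1 ISRE-like match, at 59 bases. Gbp7 and Gbp2 lie on chromosome 3. The values these promoters go with are differences of 1.88 for Irgm2, 1.87 for Igtp, 1.59 for Gbp7 and 2.75 for Gbp2. Of the other chemokine, GBP and IRG genes with a promoter in the table, Cxcl10, Gbp2b, Gbp3 and Irgm1 had an ISRE-like match, and Cxcl9 and Ifi47 had neither match. Higher genes outside these families with an ISRE-like match were Trim30a, Apobec3, Chek1, Atp6v1d and Rbm28, and those with a GAS-like match were Chil3 and Samhd1.

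The genes that encode the interferon-gamma pathway itself were not called: 0 of 10 that passed the filter, with 9 of the 10 differences above 0 and a median of 0.31. The nearest was Irf1, an interferon-induced transcription factor, with 8.88, 8.49, 8.65, 8.28 and 8.11 in allografts, against 7.95, 7.87, 7.96, 7.74 and 7.24 in isografts. Its arrays did not overlap, and its difference of 0.73 (SE 0.18) had an adjusted p = 0.0524 by limma. Leaving out allograft replicate 5 gave a call (0.82, adjusted p = 0.0288), and so did leaving out isograft replicate 3 (0.78, adjusted p = 0.0487). Irf1 was also called with array weights (0.82, adjusted p = 0.0025) and, at limma adjusted p of 0.0274 to 0.0496, with the replicate number as a block in all 35 arrays, the filter at log2 7, centring on reference genes, the mean of each gene's probe sets, or the 2 arrays that lay away from their groups left out. It was not called with the 10 day 4 arrays alone (adjusted p = 0.220). Ifng, the cytokine, was below the filter, with a mean of 3.18 ± 0.22 in allografts and 3.08 ± 0.18 in isografts (SD, n = 5 each, exact two-sided permutation p = 0.460). On the same probe set Ifng had a mean of 5.23 ± 0.51 in allografts and 3.16 ± 0.28 in isografts at day 14 (SD, n = 5 each), so a higher level could be read on these arrays.

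Of 28 other genes known to be induced by interferon-gamma, 1 was called higher, beside 0.472% of genes represented by 1 probe set each. Counting a call on any probe set, 2 were higher. A difference above 0 was found in 26, with a median of 0.58, against 0.04 over all genes kept. The gene called by its representative probe set was Epsti1, an interferon-responsive gene first described in epithelial-stromal contact. It rose by 2.39 on that probe set (SE 0.39, adjusted p = 3.2e-04, limma). Other probe sets of Epsti1 differed by 1.36 and -0.05 and were not called. Several genes of this list with large differences did not pass: Acod1, which makes itaconate in activated macrophages, differed by 1.63 and Cd274, the checkpoint ligand PD-L1, by 1.30. Of 28 genes of the type I interferon response, 2 were called higher and 1 lower, with a median of 0.65. Over all genes represented by 1 probe set each the shares were 0.472% and 0.0943%. Counting a call on any probe set, 3 of the 28 were higher. Trim34a, a TRIM protein, rose by 2.78 on 1 probe set while its second, below the filter, differed by -0.31. Oasl2, a 2'-5' oligoadenylate synthetase-like protein, had 8.88, 8.70, 9.11, 7.16 and 8.67 in allografts, against 7.15, 6.58, 7.83, 6.49 and 7.16 in isografts. Its difference of 1.46 (adjusted p = 0.0171, limma) was not called when any 1 of allograft replicates 1, 2, 3 and 5 or isograft replicates 2 and 4 was left out (1.31 to 1.42, adjusted p 0.053 to 0.101). Ifi44l, another interferon-induced gene, fell in allografts, and is described with the lower genes.

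Of the 12 genes for peptide loading on MHC class I and the immunoproteasome, 1, Tap1, was called higher. Over all genes represented by 1 probe set each the share was 0.472%. TAP1 is a chain of the transporter that carries peptides into the endoplasmic reticulum. Tap1 had 8.42, 8.31, 8.71, 7.74 and 8.30 in allografts, against 6.91, 5.31, 6.92, 6.19 and 6.74 in isografts, and rose by 1.88 (SE 0.28, adjusted p = 7.9e-05, limma). Its 3 other probe sets were near background, with means of 1.75 to 2.98 in allografts and 1.81 to 3.13 in isografts. Psmb9, an immunoproteasome subunit, differed by 1.46 (adjusted p = 0.098, limma) and was not called, and neither was Psmb8, another subunit, with 0.86 (adjusted p = 0.596, limma). The heavy chain H2-K1 and the light chain B2m were near equal, with means of 11.11 and 12.30 in allografts and 10.95 and 12.26 in isografts.

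**Figure D2:**
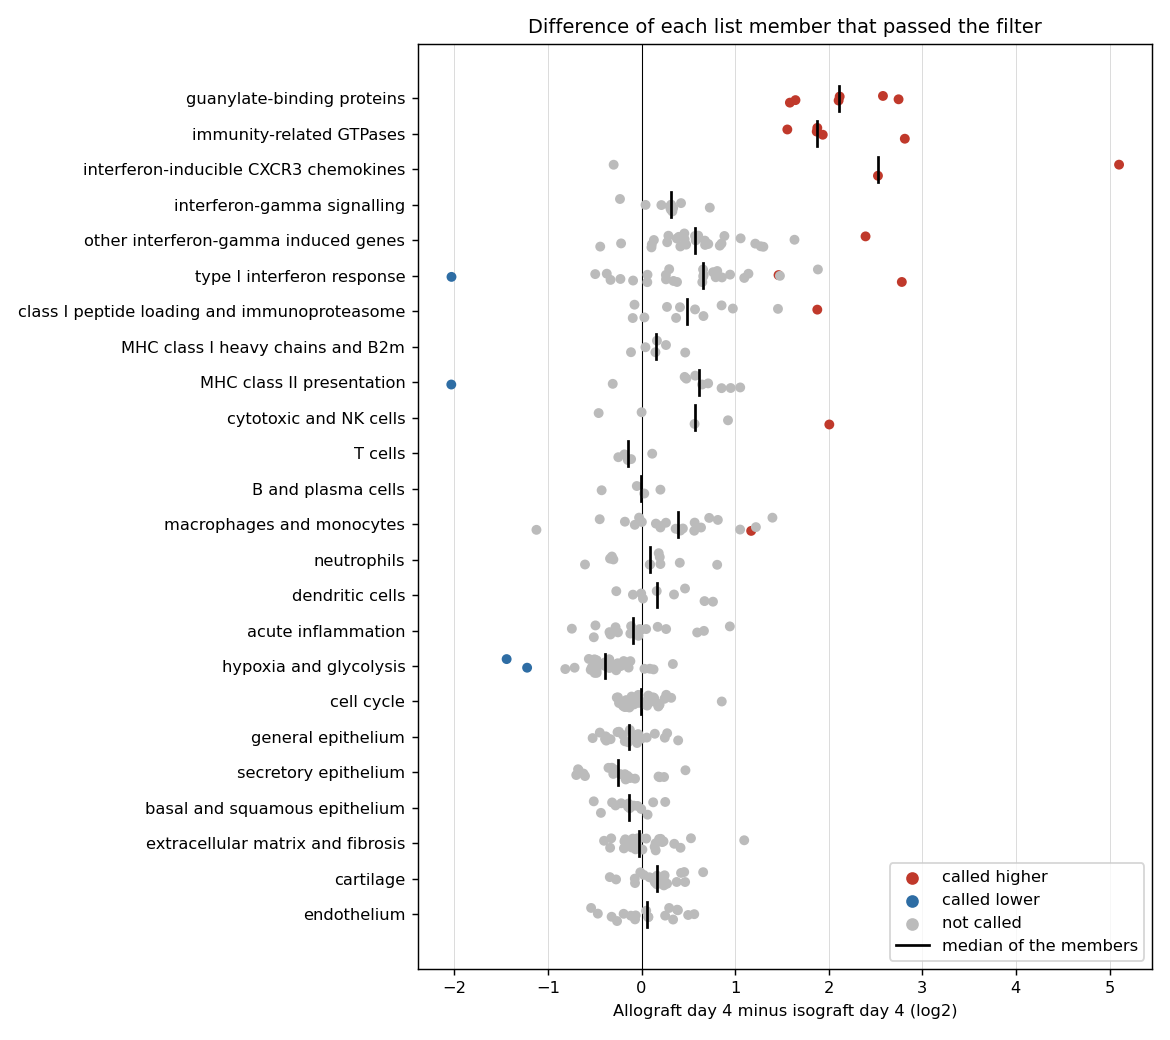
Difference of each gene that passed the filter in 24 lists, on the log2 scale, allograft day 4 minus isograft day 4. Red points were called higher, blue points lower and grey points were not called. Vertical bars are medians. The 6 GBP and 5 IRG genes lie at 1.56 or more, while T cell genes, with a median of -0.15, and cell cycle genes, with a median near 0, centre on 0.

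Markers of T cells, the cells that recognise foreign MHC, were mostly at background: 5 of the 21 on the array passed the filter and 0 were called. Cd3e, a chain of the T cell receptor complex, had a mean of 4.59 ± 0.44 in allografts and 4.64 ± 0.28 in isografts, and Cd8a had 4.67 ± 0.36 in allografts and 4.66 ± 0.24 in isografts (SD, n = 5 each). Exact two-sided permutation tests gave p = 0.770 for Cd3e and p = 0.937 for Cd8a, where the smallest p possible is 0.00794. Cd4, the coreceptor of helper T cells, differed by -0.11 and was not called. In bulk tissue, fewer cells of a type and less RNA per cell cannot be told apart. Among genes of cytotoxic and NK cells, 5 of 28 on the array passed the filter. Of these 1 was called higher, beside 0.472% of genes represented by 1 probe set each. Klrd1, which encodes CD94 of NK cell receptors, had 6.39, 6.19, 6.88, 6.13 and 5.69 in allografts, against 3.93, 4.10, 4.90, 4.11 and 4.19 in isografts and 2.78 to 3.22 in native trachea. It passed the filter only through the allografts, and it rose by 2.01 (SE 0.27, adjusted p = 1.2e-05, limma).

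Gzmb, which encodes the protease granzyme B of cytotoxic cells, had 6.12, 6.04, 7.08, 5.34 and 5.74 in allografts, against 5.33, 4.68, 6.13, 4.52 and 5.04 in isografts. The groups overlapped and its difference of 0.92 was not called (adjusted p = 0.236, limma), but it was without isograft replicate 3 (1.17, adjusted p = 0.0249). It was also called with array weights (1.01, adjusted p = 0.0326) and with the replicate number as a block in the 10 day 4 arrays (0.92, SE 0.15, adjusted p = 0.0329, limma). Below the filter, the NK receptor gene Klrk1 had means of 4.40 ± 0.36 in allografts and 3.76 ± 0.27 in isografts (SD, n = 5 each, exact two-sided permutation p = 0.0238). The cytotoxic granule gene Nkg7 had 5.07 ± 0.51 in allografts and 4.46 ± 0.33 in isografts (SD, n = 5 each, exact two-sided permutation p = 0.0476). Without isograft replicate 2 Klrk1 gave p = 0.0556, and Nkg7 gave p of 0.0556 to 0.119 without any 1 of allograft replicates 1, 2 and 3 or of the 5 isografts (exact permutation). These are 2 of 14 genes tested in this way, and in the limma fit without a filter their adjusted p was 0.646 for Klrk1 and 0.764 for Nkg7. Prf1, which encodes perforin, had means of 3.18 ± 0.39 in allografts and 2.98 ± 0.28 in isografts (SD, n = 5 each, exact permutation p = 0.405).

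Markers of macrophages and monocytes were high in both kinds of graft. Of 24, 1 was called higher, beside 0.472% of genes represented by 1 probe set each. In 18 of the 24 the difference was above 0, and the differences ran from -1.12 to 1.40. Their mean level was 8.491 to 8.821 in allografts and 7.998 to 8.511 in isografts, against 5.661 to 6.167 in native trachea, and their median difference was 0.39. Their part in the differences of the interferon-induced genes was not tested. C1qb, a chain of the complement starter C1q, had 11.18, 11.49, 11.86, 10.80 and 10.85 in allografts, against 9.55, 10.26, 10.48, 10.01 and 10.01 in isografts. It rose by 1.17 (SE 0.25, adjusted p = 0.0099, limma). Leaving out allograft replicate 3 gave 1.02 (adjusted p = 0.0695) and leaving out isograft replicate 1 gave 1.04 (adjusted p = 0.0549), and neither was a call. C1qc differed by 1.05 and C1qa by 0.72, neither called. Itgax, the integrin chain CD11c of dendritic cells and some macrophages, differed by 1.40 (adjusted p = 0.106, limma).

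A few called genes that belong to none of these lists are known from leukocytes, and were picked here from the called ones. Cd300ld, a myeloid receptor, had 7.21, 6.82, 6.91, 6.82 and 6.77 in allografts, against 4.76, 5.21, 4.80, 4.68 and 4.90 in isografts, and rose by 2.04 (SE 0.30, adjusted p = 6.9e-05, limma). Ms4a4b, a membrane protein of T and NK cells, differed by 1.99, the leukocyte surface antigen gene Cd52 by 1.37 and Ly86, which encodes the MD-1 partner of the receptor RP105, by 1.58. These 3 were called on all arrays, but calls were lost without 1 array. Ms4a4b was lost without allograft replicate 1 or 3 or isograft replicate 2 or 4 (1.60 to 1.90). Cd52 was lost without allograft replicate 1, 2 or 3 or isograft replicate 2, 4 or 5 (1.23 to 1.36). Ly86 was lost without allograft replicate 1, 3 or 5 or any isograft but replicate 3 (1.34 to 1.69). All 3 stood higher in isografts than in native trachea, with means of 7.54, 8.85 and 9.40 in allografts, 5.55, 7.48 and 7.83 in isografts and 3.54, 5.82 and 4.32 in native trachea. Markers of neutrophils (11 genes), dendritic cells (9) and B and plasma cells (4) held no called gene, and neither did the 19 genes of acute inflammation, whose median difference was -0.09.

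Some of the greatest differences belonged to single probe sets. Rpgrip1, which encodes a protein of photoreceptor cilia, had 10.16, 10.40, 9.48, 10.10 and 10.79 in allografts, against 3.00, 5.21, 5.03, 4.90 and 3.95 in isografts (difference 5.77, SE 0.43, adjusted p = 6.0e-11, limma). Its 3 other probe sets were near background, with means of 2.75 to 3.59 in allografts and 2.95 to 3.89 in isografts. Ifi209, an interferon-inducible gene of the family that holds nucleic acid sensors, had 8.49, 8.11, 8.45, 7.05 and 8.15 in allografts, against 2.252, 2.371, 2.493, 2.253 and 2.200 in isografts (difference 5.74, SE 0.26, adjusted p = 7.4e-17, limma). A second probe set of Ifi209 was high in both groups, with means of 7.72 in allografts and 6.48 in isografts (adjusted p = 0.185, limma). Arl2bp, which encodes a partner of the small GTPase ARL2, rose by 2.06, with 5.26 to 7.41 in allografts and 3.73 to 5.02 in isografts. Rps9, a ribosomal protein gene, rose by 2.51 on 1 probe set and differed by -0.67 on another (adjusted p = 0.959, limma). Snx6, a sorting nexin, rose by 2.62 on 1 probe set, with 1.03 and 0.40 on the others. Where probe sets of a gene disagree in this way, the difference is that of the probe set, and what its probes measured was not tested.

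The lower genes were led by MHC. H2-Ea encodes the alpha chain of the class II molecule E, a gene that some inbred mouse haplotypes do not transcribe. One of its probe sets had 2.03, 3.62, 4.68, 1.71 and 1.78 in allografts, against 9.68, 9.08, 9.54, 9.05 and 9.37 in isografts and a mean of 8.92 in native trachea. It fell by 6.58 (SE 0.50, adjusted p = 6.9e-11, limma). A second had 6.21, 6.99, 7.15, 6.93 and 6.49 in allografts, against 8.83, 8.56, 8.93, 8.96 and 8.66 in isografts, and fell by 2.03. The other class II genes did not share this: 8 of 10 genes of class II presentation had a difference above 0, and 1, H2-Ea, was called. Their median was 0.61. H2-Aa, the alpha chain of class II molecule A, differed by 0.95 on its representative probe set (adjusted p = 0.0537, limma) and by -0.39 on another.

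H2-D1, a class I heavy chain, gave 2 kinds of reading. Of its 7 probe sets kept, 3 were called lower, by 1.48, 1.48 and 1.49 on the log2 scale, and the other 4 differed by 0.09 to 0.29 and were not called. The first of the 3 had 9.80, 10.25, 10.15, 9.98 and 9.98 in allografts, against 11.66, 11.72, 11.43, 11.06 and 11.67 in isografts and a mean of 11.43 in native trachea. The highest probe set of H2-D1 had means of 12.11 in allografts and 11.85 in isografts. All 3 lower ones carry the suffix _x_at, given by the manufacturer to probe sets whose probes can also match other sequences, and so do 3 of the 4 others. One of the 3, with a difference of -1.49, was not called when any 1 of allograft replicates 1 and 4 or isograft replicates 1, 2 and 5 was left out (-1.50 to -1.41, adjusted p 0.0503 to 0.0711).

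Hal, which encodes histidine ammonia-lyase, an enzyme of histidine breakdown in skin and liver, had 2.94, 2.66, 3.02, 2.92 and 2.89 in allografts, against 7.40, 7.40, 6.78, 6.93 and 7.31 in isografts and 3.30 to 5.60 in native trachea. It fell by 4.28 (SE 0.46, adjusted p = 1.3e-07, limma). Ifi44l fell by 2.29 and 2.03 on its 2 probe sets kept. On the first, allografts had 4.23, 4.98, 4.44, 4.27 and 4.21, against 7.22, 6.89, 7.33, 5.51 and 6.64 in isografts and a mean of 4.48 in native trachea, so the isografts stood apart from both other groups. Cap1, a regulator of actin, had 8.84, 8.63, 8.86, 8.65 and 8.97 in allografts, against 10.71, 10.04, 9.69, 9.73 and 10.13 in isografts. It fell by 1.27, but not without isograft replicate 1 (-1.11, adjusted p = 0.0738, limma). Its second probe set differed by -1.33 and was not called. The splicing factor gene Srsf2 fell by 1.104 on 1 probe set, while its others differed by -0.29, -0.19 and -0.16 and were not called. Its call was lost when allograft replicate 2 (-0.97, adjusted p = 0.065) or isograft replicate 1 was left out (-1.01, adjusted p = 0.0549, limma). Ctse, which encodes the protease cathepsin E, had 5.08 to 5.66 in allografts and 5.86 to 6.67 in isografts (difference -0.86, adjusted p = 0.0306, limma). Its call was lost when any 1 of allograft replicates 1 to 4 or isograft replicates 2 to 4 was left out. Another probe set of Ctse differed by 0.37 and was not called.

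**Figure D3:**
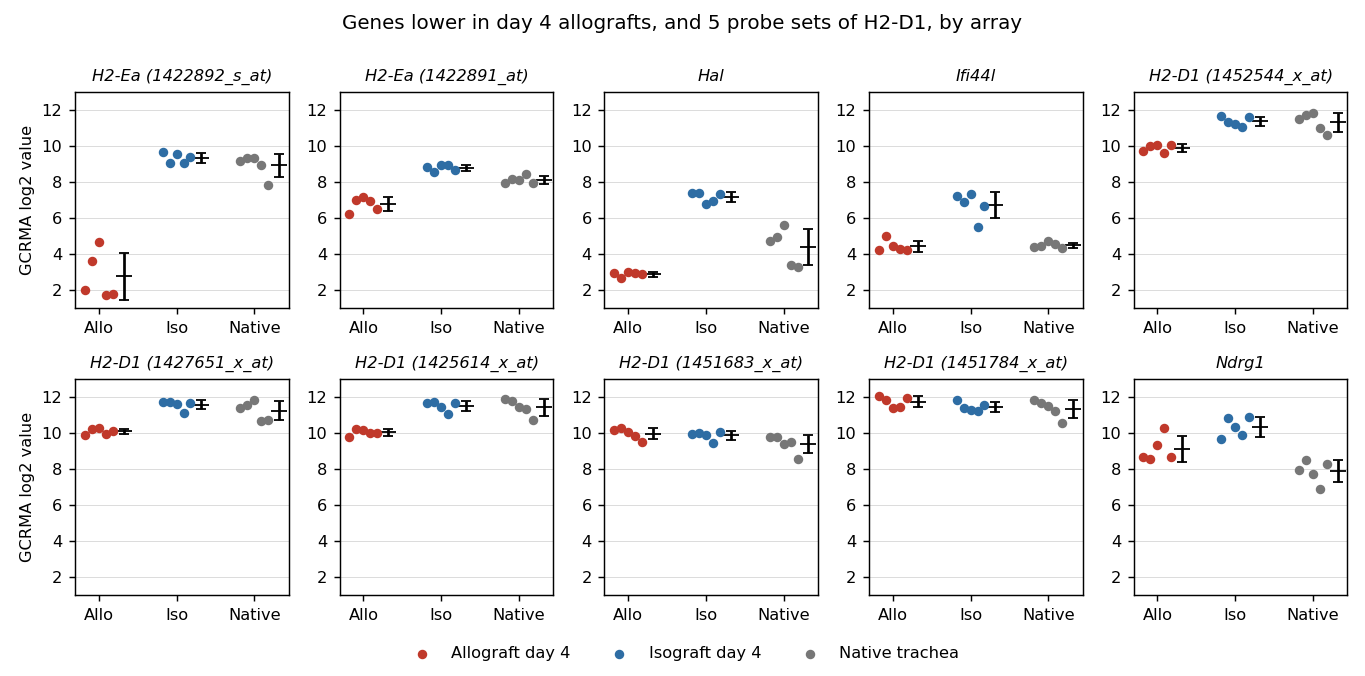
Log2 values by array of H2-Ea on 2 probe sets, Hal, Ifi44l, 5 probe sets of H2-D1 and Ndrg1, with allografts on the left, isografts in the middle and native trachea on the right of each panel. Points are arrays in replicate order and black bars are the mean and SD (n = 5). In 3 of the H2-D1 panels every allograft lies below every isograft, and in the other 2 the groups overlap.

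Of 31 genes of hypoxia and glycolysis, 2 were called lower in allografts, beside 0.0943% of genes represented by 1 probe set each. Of the 31, 4 had a difference above 0, and the median was -0.39, against 0.04 over all genes kept. Their mean level was 8.360 to 8.994 in allografts and 8.766 to 9.460 in isografts, against 7.969 to 8.150 in native trachea. Eno2, a glycolytic enolase, had 4.44, 4.94, 4.54, 5.21 and 4.40 in allografts, against 5.78, 6.12, 6.01, 5.63 and 7.20 in isografts and a mean of 4.96 in native trachea. It was lower in allografts than in isografts by 1.44 (SE 0.31, adjusted p = 0.0101, limma). Ndrg1, which is induced by hypoxia, had 8.69, 8.57, 9.32, 10.25 and 8.69 in allografts, against 9.65, 10.85, 10.31, 9.90 and 10.91 in isografts and a mean of 7.87 in native trachea. It was lower in allografts than in isografts by 1.22 (SE 0.29, adjusted p = 0.0374, limma). Its groups overlapped through allograft replicate 4. All 5 of its probe sets differed by -0.94 to -1.26, and 1 was called. The Eno2 call was lost without isograft replicate 5 (-1.18, adjusted p = 0.0715). For Ndrg1 it was lost when allograft replicate 1, 2, 3 or 5 or isograft replicate 2, 3 or 5 was left out (-1.28 to -1.08). With the 10 day 4 arrays alone neither was called (adjusted p = 0.0657 for Eno2 and 0.303 for Ndrg1, limma). Slc2a1, the glucose transporter GLUT1, differed by -0.54 and Bnip3, a mitophagy receptor induced by hypoxia, by -0.72, and neither was called.

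No difference of the graft's structural tissue passed the test. No gene was called among 24 genes of general, 20 of secretory, 3 of ciliated or 14 of basal and squamous epithelium, 28 of extracellular matrix, 21 of cartilage, 11 of smooth muscle and 18 of endothelium, or 33 of the cell cycle. At an unadjusted p under 0.05, 487 of the 12067 probe sets kept were higher and 182 lower. The list medians ran from -0.26 in secretory epithelium to 0.16 in cartilage. Markers of adjoining tissue varied between arrays of the same group. Pth, which encodes parathyroid hormone, lay between 4.21 and 10.54 in allografts and between 2.29 and 7.15 in isografts, and its difference of 3.35 was not called (adjusted p = 0.064, limma).

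Most of the day 4 differences were present on other arrays at later days. Of the 59 probe sets higher at day 4, 55 were also called higher at day 14, where 10.4% of the probe sets kept were, and 54 at day 25, where 6.0% were, and 54 on both days. The median difference of the 59 was 1.92 at day 4, 2.55 at day 14 and 2.40 at day 25. In 48 of the 59 no array overlapped on any of the 3 days, a share not counted over all probe sets kept. The 59 were chosen on the day 4 arrays, and 7 of them passed the filter only through the allografts. Their day 4 separation is therefore no independent result. Of the 15 lower probe sets, 13 were called lower on both later days, where 7.43% of the probe sets kept were at day 14 and 7.46% at day 25. Their medians were -1.48 at day 4, -2.07 at day 14 and -2.67 at day 25. The 13 chemokine, GBP and IRG genes were all called at day 14 and 12 of them at day 25, with medians of 2.11 at day 4, 2.55 at day 14 and 2.38 at day 25.

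Whether the difference itself changed was tested as an interaction, which limma called in 5.84% of the probe sets kept between day 14 and day 4 and in 4.3% between day 25 and day 4. Counted by sign, a later difference above that of day 4 was called in 2.5% of probe sets at day 14 and 0.862% at day 25, and one below it in 3.34% and 3.44%. Among the 59 higher ones it was above that of day 4 in 9 at day 14 and in 10 at day 25, and below it in 0 at day 14 and in 2, Gbp2b and Gsr, at day 25. The 59 were chosen for their day 4 difference, which the interaction subtracts. That choice by itself tends to make later differences smaller, and it was not corrected for. Gbp2b differed by 2.12 at day 4 and 2.58 at day 14 but by -0.05 at day 25, with means of 6.76 ± 0.64 in allografts and 6.81 ± 0.70 in isografts at that day (SD, n = 5 each). Its difference at day 25 was smaller than at day 4 by 2.16 on the log2 scale (day 25 minus day 4 -2.16, adjusted p = 0.0079, limma), while Gbp8 differed by 2.11, 4.63 and 4.07 at days 4, 14 and 25.

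A few genes were called at day 4 and at neither later day, a choice by day 4 values that tends to make later differences smaller. These genes were Gsr, which encodes glutathione reductase, the proton pump subunit gene Atp6v1d, the checkpoint kinase gene Chek1 and Chil3, a chitinase-like protein of alternatively activated macrophages and neutrophils, among the higher, and Eno2 and Ndrg1 among the lower. Chil3 had 7.88, 7.46, 7.70, 6.54 and 6.99 in allografts, against 4.68, 5.40, 5.15, 6.05 and 4.19 in isografts, a difference of 2.22 at day 4 (adjusted p = 0.0374, limma), 1.38 at day 14 and 0.09 at day 25. It was no longer called at day 4 when allograft replicate 1, 2, 3 or 5 or isograft replicate 1, 2, 3 or 5 was left out (1.99 to 2.30). Single arrays also ended the day 4 calls of Gsr (allograft replicates 1 and 2, isograft replicates 2 and 5, 0.84 to 0.97), Atp6v1d (allograft replicates 1 and 3, isograft replicates 1 and 2, 0.89 to 1.07) and Chek1 (allograft replicate 5, isograft replicates 1 and 2, 1.03 to 1.097). Ndrg1 differed by -1.22, 0.24 and -0.36 at days 4, 14 and 25, and the change between day 4 and day 14 was called (1.46, adjusted p = 0.0292, limma). The changes between days of Chil3, Atp6v1d, Chek1 and Eno2 were not called.

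The probe sets with the greatest differences held similar sizes on each day. Rpgrip1 differed by 5.77, 6.69 and 6.98 at days 4, 14 and 25, Ifi209 by 5.74, 5.84 and 5.42, and Hal by -4.28, -3.03 and -4.18. H2-Ea differed by -6.58, -4.79 and -5.46 on its first probe set. The H2-D1 probe sets were different: the first of the 3 lower ones differed by -1.48, -2.135 and -4.08, and the change between day 4 and day 25 was called (-2.60, adjusted p = 9.2e-05, limma). Cap1 likewise differed by -1.27, -2.88 and -3.63. Epithelial genes that did not differ beyond the spread at day 4 did so later: Scgb1a1 differed by 0.18 at day 4, -6.85 at day 14 and -9.76 at day 25, and Epcam, an epithelial adhesion molecule, by -0.37, -3.65 and -6.06.

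**Figure D4:**
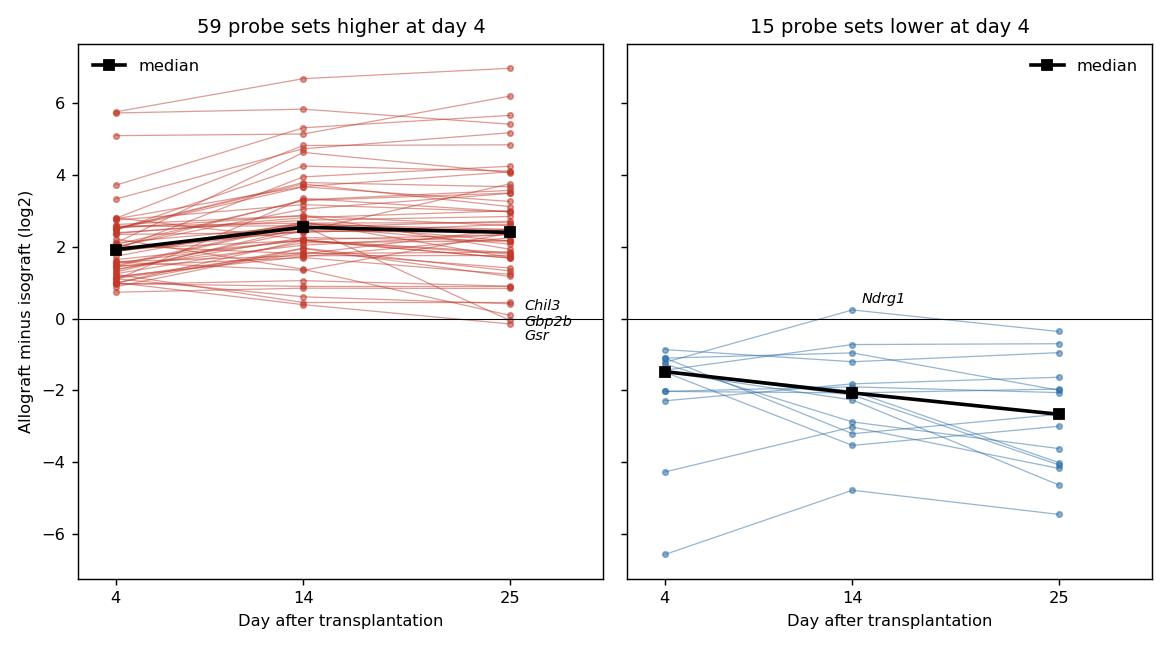
Allograft minus isograft difference, on the log2 scale, at days 4, 14 and 25 for the 59 probe sets higher (left, red) and the 15 lower (right, blue) at day 4. Each line is a probe set and the black line is the median, which is 1.92, 2.55 and 2.40 on the left and -1.48, -2.07 and -2.67 on the right. Gbp2b, Chil3 and Gsr lie near 0 at day 25, and Ndrg1 lies at 0.24 at day 14.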

How the data were processed

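The values are the log2 intensities that the authors deposited for 35 Affymetrix arrays, made with GCRMA 1.1.3 per the submitters' processing notes, which corrects for background by probe sequence and gives 1 value per probe set. Genes were named from GEO's platform annotation, and probe sets with several genes or none were counted and not named. A linear model with a mean for each of the 7 groups used every array (limma 3.58.1, R 4.3.3, 28 residual degrees of freedom), after the filter of log2 5 in 5 of 10 arrays. Tests were two-sided with Benjamini-Hochberg adjustment over 12067 probe sets. Of a gene's probe sets, the one with the highest mean stood for it. Genes below the filter were tested by exact permutation over 252 assignments. The fit was tested on simulated data. Members, the 36 gene lists and the rule for naming genes (the 20 largest rises and 12 largest falls, up to 4 called members of a list, and a panel) were chosen with earlier results of these data known. The number of arrays limits the precision.

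No 2 arrays held identical values. The alternatives were other filters, scalings, weights, arrays, thresholds and blocks, and each array left out in turn.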

Additional observations from a re-analysis of the deposited data

Results flagged for a closer look

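Of 148 groups of 5 arrays examined for the genes named (74 probe sets in 2 groups), 10 held 1 array far from the other 4, and chance gives about 1 in 20. Isograft replicate 3 was the high one for Cxcl10 (7.10), Iigp1 on its second probe set (7.74), Klrd1 (4.90) and Ifi47 (8.07). Among allografts, replicate 3 was high for Iigp1 on its first probe set (11.15), replicate 4 was low for Ifi209 (7.05) and Oasl2 (7.16), and replicate 5 was high for Foxj1 (6.53). Isograft replicate 2 was low for Trim21 (4.797) and isograft replicate 4 was low for 1 probe set of H2-D1 (11.12). With all arrays the Foxj1 difference was -0.07 (exact permutation p = 0.944). Without allograft replicate 5 it was -0.49, and every allograft left lay below every isograft (exact permutation p = 0.00794, the smallest that 4 arrays against 5 can give). That array was picked from these same values, so the second p-value is no test of a difference in Foxj1.

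The allograft-isograft difference at a later day differed from that at day 4 (limma interaction, adjusted p under 0.05) in the following genes, given as the later difference minus the day 4 difference on the log2 scale. Larger rises were found for Gbp8 (2.53 at day 14, 1.97 at day 25), Klrd1 (1.48 at day 25), Rbm28 (1.19 at day 14), Ncapg2 (1.07 at day 14) and Gzmb (3.59 at day 14, 2.40 at day 25), and for Ighm, an immunoglobulin heavy chain gene (5.71 at day 25). The rise was smaller at day 25 for Gbp2b (-2.16) and Gsr (-1.15). Larger falls were found for Cap1 (-1.61 at day 14, -2.36 at day 25) and for 3 probe sets of H2-D1 at day 25 (-2.60, -2.54 and -3.15). Ndrg1 had a change of 1.46 at day 14. Epithelial genes had changes of -7.03 at day 14 and -9.94 at day 25 for Scgb1a1, of -3.28 and -5.69 for Epcam, and of -4.94 at day 25 for Krt5.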

How the results depend on the processing

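No difference of a named gene changed sign with its call. Of 58 called probe sets with 1 gene, 24 kept their call in every setting run and 36 kept it without any 1 array. Probe sets called higher numbered 45 to 71 when 1 array was left out, and lower 10 to 15. Against 59 higher and 15 lower, the 10 day 4 arrays alone gave 37 higher and 11 lower, with fewer degrees of freedom for the spread. A filter at log2 7, which tests fewer probe sets (6110), gave 36 and 9, with 448 and 272 changed differences at days 14 and 25 in place of 705 and 519. An adjusted p under 0.01 gave 8 lower and 351 and 312 changed differences. Array weights gave 23 lower and 1160 and 947 changed differences, and the mean of each gene's probe sets gave 4 lower; the cause was not tested for these. Without native replicate 5 and day 25 isograft replicate 5, an alternative chosen after seeing the data, 65 were higher and 16 lower.

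With the replicate number as a block, 63 probe sets were higher and 13 lower in the fit of all arrays (744 and 525 changed differences at days 14 and 25), and 74 and 14 in the 10 arrays alone. Same-numbered allografts and isografts correlated at 0.064 to 0.468 in their deviations from the group means, over 0.1 in 4 of 5 pairs. Arrays with different numbers correlated at -0.508 to 0.241. The labels do not say that the numbers pair the arrays, and the main fit took no pairing. Correlations were highest with the own number in 7 of 10 arrays, a hint from the data and not the design.

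Ifng and most T cell markers lay near background at day 4, where small differences are hard to measure.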

Other observations

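The genes in this paragraph were picked from the called ones and stand for no group. Chek1, a checkpoint kinase, and Ncapg2, a condensin subunit, rose in day 4 allografts by 1.23 and 0.89 on the log2 scale (adjusted p = 0.0101 and 0.0368, limma), while limma called 0 of 33 genes of the cell cycle list and 16 had a difference above 0. Single arrays ended these calls: Chek1 without allograft replicate 5 or isograft replicate 1 or 2 (1.03 to 1.097), and Ncapg2 without any 1 of allograft replicates 2 to 4 or isograft replicates 2 to 5 (0.80 to 0.89). With the 10 day 4 arrays alone Chek1 was not called either. The other probe sets of Chek1, all below the filter, differed by -0.31, -0.30 and 0.27. Apobec3, a cytidine deaminase that restricts retroviruses, had 6.47, 6.54, 6.04, 5.13 and 6.76 in allografts, against 5.09, 4.40, 5.58, 4.95 and 4.68 in isografts, and rose by 1.25 (SE 0.24, adjusted p = 0.0025, limma). Its groups overlapped through allograft replicate 4, and it was not called with the 10 day 4 arrays alone (adjusted p = 0.178, limma) or with the replicate number as a block there (adjusted p = 0.167). Trim30a, a TRIM protein, rose by 2.49 on 1 probe set, with 9.90, 9.54, 10.04, 9.64 and 9.41 in allografts, against 7.20, 5.65, 9.13, 6.93 and 7.17 in isografts and a mean of 4.68 in native trachea. With the 10 day 4 arrays alone it was not called (adjusted p = 0.0569, limma), and its second probe set differed by 0.79 and was not called. Parp3, a poly(ADP-ribose) polymerase, rose by 1.44, but not without allograft replicate 1 (1.23, adjusted p = 0.0628, limma) or with the 10 day 4 arrays alone (adjusted p = 0.0699). Its second probe set differed by 0.69 and was not called.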
